A study of Homo sapiens with 3 samples.

Results

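The 44 collagen genes of the human genome that the table of Cal62 cells lists were examined, out of 58333 genes in the table. A gene was a member when its Ensembl identifier belonged, in GENCODE release 44, to a protein-coding gene with a symbol made of COL, a type number, A and a chain number. Cal62 is an established line of human thyroid cancer cells, from an anaplastic carcinoma. The cells were transfected with a control siRNA (siControl) or with siADAR1 #1 or siADAR1 #2, which are siRNAs against ADAR1, the enzyme that edits adenosine to inosine in double-stranded RNA. Poly(A)+ RNA was sequenced from 2 biological replicates of each transfection, which gives 6 libraries, and all of them come from the same cell line grown alone in culture. GEO lists each transfection as 1 sample whose values stand in 2 columns, and each column was treated as a biological replicate, as the methods of the study have 2. The time from transfection to RNA isolation is not stated in the sources used here.

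Collagens are secreted or membrane-bound proteins of the extracellular matrix, built from alpha chains that wind around each other in a helix and assemble into fibrils, networks or filaments. Fibrillar collagens give tissues tensile strength, type IV collagens form the sheet of the basement membrane on which thyroid follicles and other epithelia rest, and fibril-associated collagens with interrupted helices (FACIT collagens) decorate the surface of fibrils. Chains are hydroxylated and folded in the endoplasmic reticulum, trimmed and cross-linked outside the cell, bound by integrins and other receptors, and broken down by matrix metalloproteinases.

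Between 30114840 and 50029763 reads per library fell on genes, and siADAR1 #2 replicate 2 had the fewest. Levels are given as normalized counts, which are reads divided by the size factor of the library, and changes as log2FC with the standard error of the fit (SE). A limit of 3 reads, which a count of 0 allows, stood for 2.805 to 4.394 normalized counts depending on the library and covers counting error only. ADAR, the targeted gene, measured 10906 and 11701 normalized counts in siControl, 1328 and 2246 with siADAR1 #1 and 1663 and 2928 with siADAR1 #2. Its level was thus lower in all 4 siADAR1 libraries, with a log2FC of -2.71 (limma, adjusted p = 0.00295) and -2.35 (adjusted p = 0.00128). PAX8, a transcription factor of the thyroid follicle, was present at a mean of 14897 normalized counts in siControl, while NKX2-1, another such factor, had 0 reads in every library and the thyroglobulin gene TG only 33.8 and 0 normalized counts in siControl. The label of a thyroid cell was therefore borne out by PAX8 and not by NKX2-1. Fibroblast markers, which matter for collagen, were low: the 7 genes of that list summed to between 112 and 176 normalized counts in every library, and LUM was at or under 3 reads in each. In such bulk RNA fewer cells of a type and less RNA per cell cannot be told apart.

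Type IV genes lie on the genome in pairs that point away from each other. In 2 of these pairs a member was called and its neighbour was not with the same siRNA, and in the other COL4A5 was called and COL4A6 was not tested, so the DNA beside these genes is shown. RefSeq places the starts of COL4A1 and COL4A2 127 bases apart, those of COL4A3 and COL4A4 419 apart and those of COL4A5 and COL4A6 380 apart. Promoter windows from RefSeq (GRCh38.p14, 300 bases each) were found for 32 of the 44 genes. The stretches below hold no annotated exon, read 5′ to 3′ on the strand of the gene named, and carry in capitals each match to a CCAAT box (CCAAT) or a GC box (GGGCGG) on either strand, so that ATTGG and CCGCCC mark matches on the opposite strand.
COL4A1 (chr13:110307158-110307257, minus strand): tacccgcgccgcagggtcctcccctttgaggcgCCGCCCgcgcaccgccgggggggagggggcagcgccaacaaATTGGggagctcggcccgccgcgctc
COL4A3 (chr2:227164454-227164623, plus strand): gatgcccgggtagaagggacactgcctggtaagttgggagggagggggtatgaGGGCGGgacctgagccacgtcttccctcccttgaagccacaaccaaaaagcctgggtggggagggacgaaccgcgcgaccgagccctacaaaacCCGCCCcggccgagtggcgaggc
COL4A5 (chrX:108439588-108439837, plus strand): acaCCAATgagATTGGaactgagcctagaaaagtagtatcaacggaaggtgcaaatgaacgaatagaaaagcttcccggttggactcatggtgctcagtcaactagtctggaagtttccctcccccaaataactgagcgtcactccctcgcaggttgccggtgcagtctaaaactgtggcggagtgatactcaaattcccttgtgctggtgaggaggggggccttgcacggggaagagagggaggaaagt

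Between the RefSeq starts of COL4A1 and COL4A2 there was 1 CCAAT box and 1 GC box. The printed stretch beside COL4A3 held 2 GC boxes and that beside COL4A5 2 CCAAT boxes. GENCODE places the start of COL4A2 1472 bases from its RefSeq start, inside COL4A1, so by GENCODE these genes overlap. The exon-free stretch of the COL4A6 window, which overlaps that of COL4A5 and reaches closer to COL4A6, held 3 CCAAT boxes. A TATA box (TATAAA) had no match in the printed stretches, which says only that those letters are not in them. Of 35116 RefSeq promoter windows of 300 bases, 34.6% held a CCAAT box, 45.0% a GC box and 11.5% a TATA box. These shares are for whole windows. The printed stretches are shorter, with 100 bases for COL4A1, 170 for COL4A3 and 250 for COL4A5, so their matches are not directly comparable with the shares. No match in the printed stretches overlaps another. The whole windows differed in base composition, with 76.7% G and C for COL4A1, 67.7% for COL4A3 and 49.3% for COL4A5.

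In siControl 27 of the 44 collagen genes were expressed, taken as a mean log2 value of at least that of 10 and a read in both siControl libraries. At a limit of 50 the number was 20. The expressed genes were 6 of 11 fibrillar, 5 of 6 type IV, 1 of 3 short-chain network, 5 of 10 FACIT and 3 of 5 type VI collagens, the anchoring fibril collagen COL7A1, both multiplexins, 3 of 4 transmembrane collagens and COL28A1. Per kb of exon, the 2 chains of the common basement membrane network led: COL4A2 had 1504 ± 478 and COL4A1 1420 ± 691 normalized counts per kb (mean ± SD, n = 2), and their order lies within their spread. COL1A1, the chain of type I collagen that is needed in larger amount, followed with 688 ± 103 and COL18A1, the source of endostatin, with 464 ± 25.3. COL12A1 had 213 ± 70.7, COL27A1 109 ± 15.8, COL6A1 85.6 ± 8.15 and COL7A1 75.3 ± 8.3 normalized counts per kb, and the last pair differed by about their spread. Next came COL8A1 with 52.5 ± 4.17, COL17A1 with 45.2 ± 1.32, COL6A3 with 27.9 ± 7.29, COL4A5 with 27.5 ± 5.23 and COL1A2 with 27.2 ± 2.84, and the last 3 did not differ beyond their spread. Every other member lay at or below 15.2 per kb, the level of COL16A1. COL3A1, a fibrillar collagen found in many fibroblast-rich tissues, had 0 reads in siControl.

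**Figure D1:**
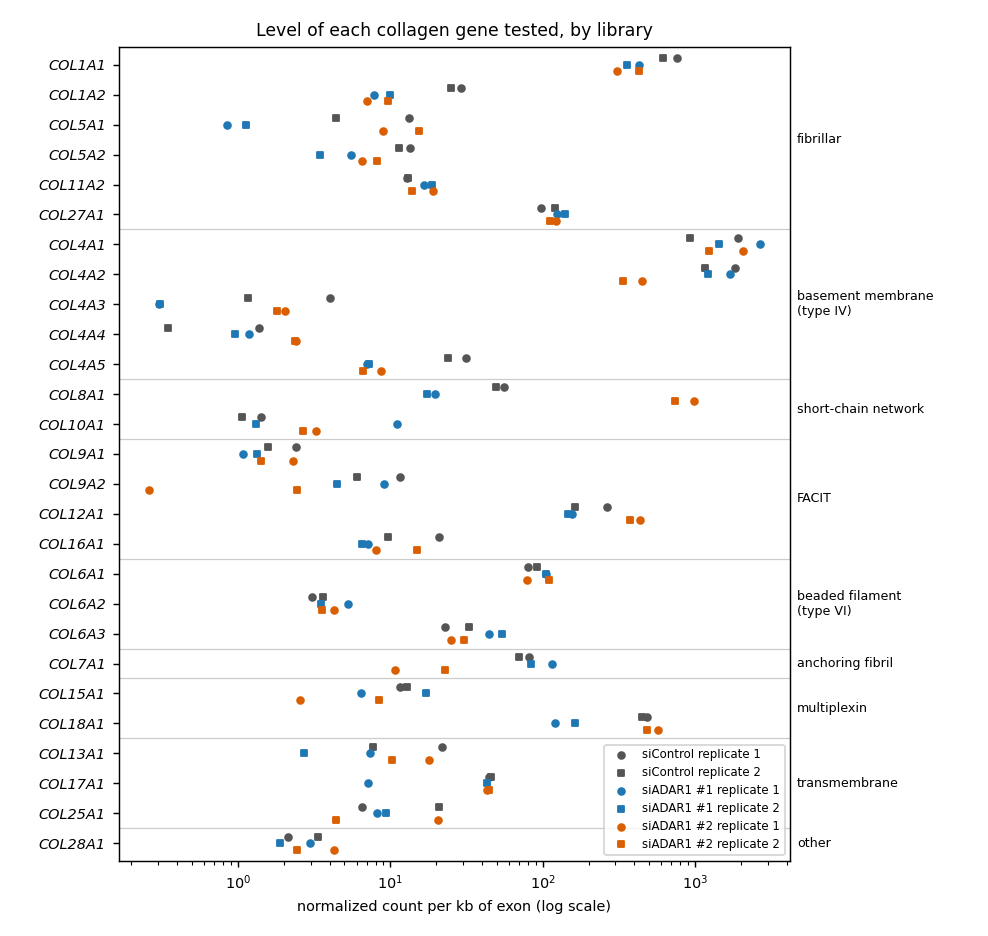
Normalized count per kb of exon (log scale) of each of the 27 collagen genes tested, with circles for replicate 1 and squares for replicate 2 of siControl (grey), siADAR1 #1 (blue) and siADAR1 #2 (orange). COL4A1, COL4A2 and COL1A1 lead in siControl, and the orange points of COL8A1 lie far to the right of its grey points while its blue points lie to their left.

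Of the 44 genes, 27 passed the filter on low values and were tested, among 20858 genes in all. A gene was called when its adjusted p-value was under 0.05 and its log2FC beyond 0.5 in either direction (limma with Benjamini-Hochberg adjustment over all genes tested). With siADAR1 #1, 9 of the 27 (33.3%) were called against 16.8% of all genes tested. Of these, 8 were downregulated, where 10.6% of all genes were, and 1 was upregulated, where 6.18% of all genes were. With siADAR1 #2, 8 of the 27 (29.6%) were called against 26.6% of all genes tested, so this share was close to the background. Here 6 were downregulated and 2 upregulated, with 15.5% and 11.1% of all genes called in these directions. The median log2FC of the 27 genes was -0.41 with siADAR1 #1 and 0.02 with siADAR1 #2, beside -0.02 and -0.01 over all genes tested. Library medians differed by -0.15 between siADAR1 #1 and siControl on the log2 scale, by -0.02 with siADAR1 #2 and by 0.13 between the siRNAs, and with the libraries centred on their medians the counts of collagen genes called were the same 9, 8 and 9.

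The counts depended on single libraries. For siADAR1 #1 the count was 2 without siControl replicate 1 and 5 without siADAR1 #1 replicate 1, and for siADAR1 #2 it was 5 without siADAR1 #2 replicate 1. A test of all 58333 genes with no filter called 1 collagen gene with siADAR1 #1, 3 with siADAR1 #2 and 4 between the siRNAs. It ended every filtered call with siADAR1 #1. The filtered calls it kept were COL4A5 and COL8A1 with siADAR1 #2 and COL8A1 and COL18A1 between the siRNAs. The other genes it called had not passed the filter. COL1A1, COL1A2, COL5A2 and COL4A5 were lower in each of the 4 siADAR1 libraries than in either siControl library, which is 4 of the 27 (14.8%) against 16.6% of all genes tested. COL11A2 was higher in each than in either, 1 of the 27 (3.7%) against 12.0% of all genes.

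**Figure D2:**
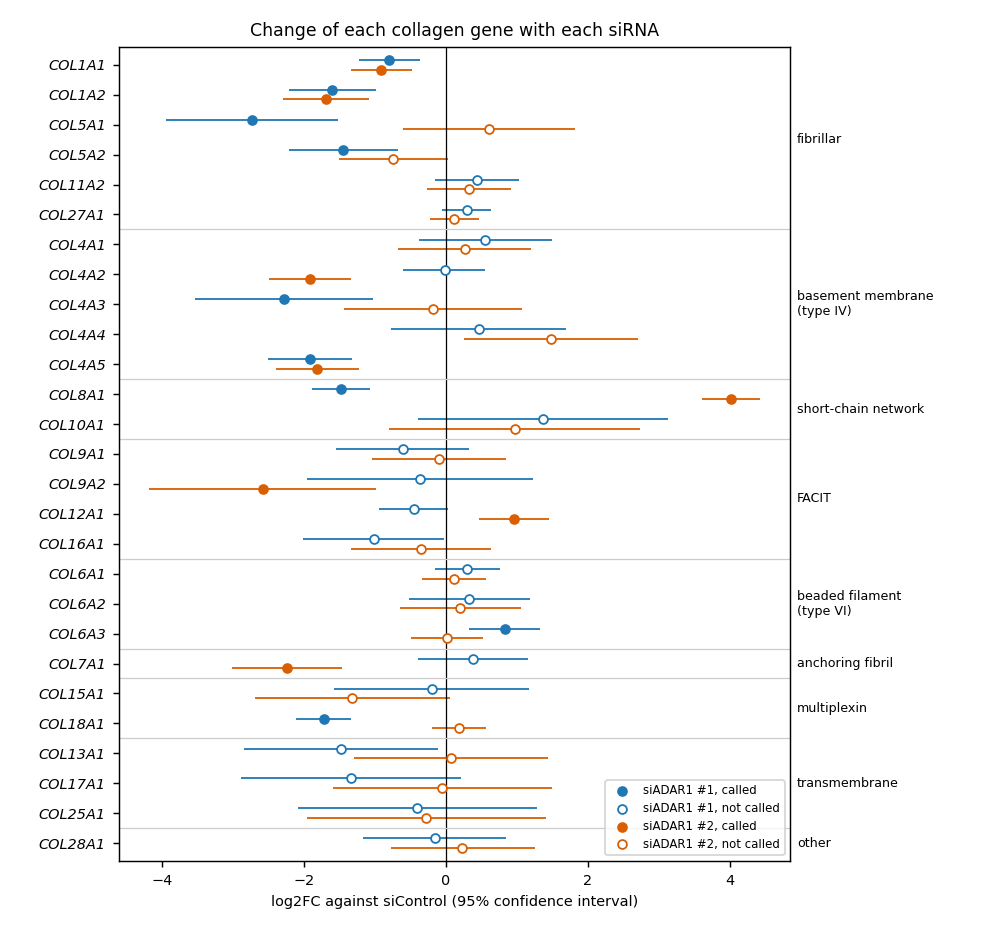
log2FC against siControl of each collagen gene tested, for siADAR1 #1 (blue) and siADAR1 #2 (orange), with bars for the 95% confidence interval of the fit and filled points for genes called. COL1A1, COL1A2 and COL4A5 have filled points left of 0 with each siRNA, and COL8A1 has filled points on either side at -1.48 and 4.01.

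Type I collagen fell with each siRNA, and COL5A1 and COL5A2, chains of the type V collagen that sits inside type I fibrils and sets their width, fell with siADAR1 #1. COL5A3, another chain of type V, was not tested. Of the 6 fibrillar genes tested, 4 were downregulated with siADAR1 #1 and 2 with siADAR1 #2, where 10.6% and 15.5% of all genes tested were. COL1A1 (chr17:50184101-50201632) measured 6851 and 5545 normalized counts in siControl, 3884 and 3243 with siADAR1 #1 and 2785 and 3866 with siADAR1 #2. All siADAR1 values were under those of siControl, and the siRNAs overlapped. The log2FC was -0.80 (SE 0.19, adjusted p = 0.0243) and -0.91 (SE 0.19, adjusted p = 0.00891). Leaving out any 1 of the 4 libraries compared ended the call with siADAR1 #1 (log2FC -0.95 to -0.64), and leaving out siControl replicate 1 or siADAR1 #2 replicate 1 ended that with siADAR1 #2 (log2FC within -1.15 to -0.67 over the libraries left out).

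COL1A2 (chr7:94394895-94431227), which encodes the other chain of type I collagen, measured 315.8 and 272 normalized counts in siControl, 84.2 and 108 with siADAR1 #1 and 76.0 and 104 with siADAR1 #2. All siADAR1 libraries were far below siControl and lay within the same range. The log2FC was -1.60 (SE 0.26, adjusted p = 0.00801) with siADAR1 #1 and -1.69 (SE 0.26, adjusted p = 0.00275) with siADAR1 #2. Without siControl replicate 1 the call with siADAR1 #1 was lost (log2FC within -1.77 to -1.42 over the libraries left out). The study picked COL1A2 and COL4A5 from these RNA-seq results for a further measurement, so their direction here is not independent evidence. Between the siRNAs the difference was -0.11 for COL1A1 (95% interval -0.55 to 0.32) and -0.10 for COL1A2 (-0.71 to 0.51).

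COL5A1 (chr9:134641803-134844843) measured 148.1 and 49.0 normalized counts in siControl, 9.4 and 12.6 with siADAR1 #1 and 99.8 and 172.8 with siADAR1 #2. The siADAR1 #1 libraries, with 10 reads each, lay below all others, while the siControl libraries differed widely and overlapped siADAR1 #2. The log2FC was -2.73 (SE 0.52, adjusted p = 0.0126) with siADAR1 #1 and 0.61 (SE 0.52, adjusted p = 0.435) with siADAR1 #2, and the difference between the siRNAs was 3.33 (adjusted p = 0.00219). The call with siADAR1 #1 was lost without siControl replicate 1 or siADAR1 #1 replicate 1 (log2FC within -3.5 to -1.95 over the libraries left out). COL5A2 (chr2:189031898-189225312) measured 99.1 and 83.6 in siControl, 40.2 and 25.1 with siADAR1 #1 and 47.6 and 60.1 with siADAR1 #2. It was below siControl in every siADAR1 library, with a log2FC of -1.45 (adjusted p = 0.0224) and -0.74 (adjusted p = 0.135), and only the former was called. That call was lost without siControl replicate 1, siControl replicate 2 or siADAR1 #1 replicate 2 (log2FC within -1.76 to -1.13 over the libraries left out). The remaining fibrillar genes were not called: COL11A2, a chain of the cartilage-type fibril, had a log2FC of 0.44 and 0.32, and COL27A1 had 0.29 and 0.12.

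Neighbouring type IV genes were not called together. With siADAR1 #1, COL4A3 and COL4A5 were downregulated and with siADAR1 #2 COL4A2 and COL4A5 were, while COL4A1 was not called with either siRNA. COL4A2 (chr13:110305812-110513209) measured 35490 and 22466 normalized counts in siControl, 32828 and 23526 with siADAR1 #1 and 8630 and 6523 with siADAR1 #2. The siADAR1 #1 libraries fell within the siControl range and the siADAR1 #2 libraries lay well below it. The log2FC was -0.02 (95% interval -0.60 to 0.55) with siADAR1 #1, a value that is 0.12 with median-centred libraries, and -1.91 (SE 0.25, adjusted p = 0.00135) with siADAR1 #2. The siRNAs differed by -1.89 (adjusted p = 0.00105).

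COL4A1 (chr13:110148963-110307157), the partner of COL4A2 in the same network, measured 27979 and 13652 normalized counts in siControl, 39094 and 21062 with siADAR1 #1 and 30408 and 18179 with siADAR1 #2. Replicate 1 was above replicate 2 in every condition, and the conditions overlapped, while within each replicate number the siADAR1 #1 library was above the siControl library. The log2FC was 0.55 (95% interval -0.38 to 1.49) and 0.27 (-0.67 to 1.20). The latter interval does not reach the COL4A2 value of -1.91. With the replicate number as a block COL4A1 was called with siADAR1 #1 (adjusted p = 0.0104 in place of 0.389), and the labels do not say whether the numbers mark pairs.

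COL4A5 (chrX:108439838-108697545), a chain whose mutation causes Alport syndrome of the kidney, measured 370.3 and 282.5 normalized counts in siControl, 83.2 and 85.4 with siADAR1 #1 and 103 and 79.1 with siADAR1 #2. All 4 siADAR1 libraries were close to each other and far below siControl. The log2FC was -1.91 (SE 0.26, adjusted p = 0.00431) and -1.81 (SE 0.26, adjusted p = 0.00185), with a difference of 0.10 between the siRNAs (95% interval -0.49 to 0.69). Without siControl replicate 1 the call with siADAR1 #1 was lost (log2FC within -2.1 to -1.71 over the libraries left out). COL4A6, its neighbour beyond the printed stretch, had 1 to 5 reads per library and was not tested.

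COL4A3 (chr2:227164624-227314792) measured 49.0 and 14.3 normalized counts in siControl, 3.7 and 3.8 with siADAR1 #1 and 24.9 and 22 with siADAR1 #2. The siADAR1 #1 libraries, with 4 and 3 reads, stood below the rest, and the siControl libraries were unlike each other. The log2FC was -2.28 (SE 0.54, adjusted p = 0.0252) and -0.18 (adjusted p = 0.839), with a difference of 2.1 (adjusted p = 0.0184) between the siRNAs. The call with siADAR1 #1 was lost without siControl replicate 1 or either siADAR1 #1 library (log2FC within -3.09 to -1.47), and that between the siRNAs without any 1 of their 4 libraries (2.02 to 2.19). COL4A3 shares 838 exon bases (6.82% of its exons) with MFF-DT on the opposite strand, a gene with 25 to 95 reads, and since the strand used in counting is not stated the values of COL4A3 are uncertain. COL4A4, its neighbour, had 16.3 and 4.1 normalized counts in siControl, 14 and 11.3 with siADAR1 #1 and 28.3 and 27.8 with siADAR1 #2. Its log2FC was 0.46 and 1.48 (adjusted p = 0.072 for the latter), and it was not called. With siADAR1 #2 it was called when siControl replicate 1 was left out (2.26) and when the replicate number was added to the fit as a block.

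COL8A1, a short-chain collagen of the matrix under vascular and corneal endothelium, changed in opposite directions with the siRNAs. COL8A1 (chr3:99638475-99799226) measured 521.6 and 466.1 normalized counts in siControl, 186.1 and 164.6 with siADAR1 #1 and 9212 and 6940 with siADAR1 #2. The 3 conditions did not overlap, with siADAR1 #1 lowest and siADAR1 #2 above all others. The log2FC was -1.48 (SE 0.18, adjusted p = 0.00335) with siADAR1 #1 and 4.01 (SE 0.18, adjusted p = 0.000103) with siADAR1 #2, a 16.4-fold higher mean than in siControl. The difference between the siRNAs, tested directly, was 5.49 (SE 0.18, adjusted p = 1.99e-05), which made siADAR1 #2 46.1-fold higher than siADAR1 #1. Among the 20858 genes tested, the rise with siADAR1 #2 was the 35th largest and the difference between the siRNAs the 13th largest. COL10A1, the collagen of hypertrophic cartilage, had 5 and 4 reads in siControl and 45 reads in siADAR1 #1 replicate 1 but 4 in siADAR1 #1 replicate 2, and was not called (log2FC 1.36 and 0.97). Without siADAR1 #1 replicate 2 it was called with siADAR1 #1 (2.66) and between the siRNAs (-1.70).

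Among the 4 FACIT collagens tested, COL12A1 rose and COL9A2 fell with siADAR1 #2. With siADAR1 #1 limma called 0, with COL16A1 alone at an unadjusted p under 0.05, and voom on the recovered reads also called 0. The shares called over all genes tested were 16.8% with siADAR1 #1 and 26.6% with siADAR1 #2. COL12A1 (chr6:75084326-75206267), which bridges fibrils in dense connective tissue, measured 4958 and 3072 normalized counts in siControl, 2918 and 2780 with siADAR1 #1 and 8222 and 7029 with siADAR1 #2. Its siADAR1 #2 libraries were above and its siADAR1 #1 libraries below the siControl libraries. The log2FC was -0.45 (adjusted p = 0.181) and 0.96 (SE 0.21, adjusted p = 0.0115), with a difference of 1.42 (adjusted p = 0.00171) between the siRNAs. The call against siControl was lost without siADAR1 #2 replicate 1 (log2FC within 0.62 to 1.31 over the libraries left out), and without siControl replicate 2 the fall with siADAR1 #1 was called (-0.80).

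COL9A2 (chr1:40300489-40317813), a chain of the type IX collagen of cartilage, measured 49.0 and 25.5 normalized counts in siControl, 38.3 and 18.8 with siADAR1 #1 and 1.1 and 10.3 with siADAR1 #2. Its siADAR1 #2 libraries, with 1 and 7 reads, were the lowest, and its other conditions overlapped. The log2FC was -0.36 (adjusted p = 0.763) and -2.58 (SE 0.69, adjusted p = 0.0256), and -2.22 (adjusted p = 0.0379) between the siRNAs. The call with siADAR1 #2 was lost without siControl replicate 1, siControl replicate 2 or siADAR1 #2 replicate 1 (log2FC within -3.58 to -1.58), and that between the siRNAs without these or siADAR1 #1 replicate 1 (-3.22 to -1.22). COL9A1 had a log2FC of -0.61 and -0.10 and COL16A1, found near fibrils in skin, one of -1.02 and -0.35, and neither was called.

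Of the type VI collagens, which form beaded filaments around cells, COL6A3 alone among the 3 tested was called. Its calls were with siADAR1 #1 and between the siRNAs, where 16.8% and 32.8% of all genes tested were called. COL6A3 (chr2:237324003-237414328) measured 490.0 and 711.9 normalized counts in siControl, 958.5 and 1156 with siADAR1 #1 and 542.0 and 657.7 with siADAR1 #2. Its siADAR1 #1 libraries were above all others, and the siADAR1 #2 libraries fell between the siControl libraries. The log2FC was 0.83 (SE 0.22, adjusted p = 0.0348) and 0.02 (adjusted p = 0.967), with a difference of -0.82 (adjusted p = 0.0208) between the siRNAs. The call with siADAR1 #1 was lost without siControl replicate 1 or either siADAR1 #1 library (log2FC within 0.56 to 1.1), and that between the siRNAs without siADAR1 #1 replicate 2 or siADAR1 #2 replicate 1 (-0.95 to -0.68). COL6A1 had a log2FC of 0.30 and 0.12 and COL6A2 one of 0.33 and 0.20.

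COL7A1, which anchors the epidermal basement membrane to the tissue below, fell with siADAR1 #2. COL7A1 (chr3:48564073-48595329) measured 903.8 and 773.1 normalized counts in siControl, 1278 and 929.5 with siADAR1 #1 and 120.2 and 254.9 with siADAR1 #2. The siADAR1 #2 libraries were below all others and the siADAR1 #1 libraries above siControl. The log2FC was 0.38 (adjusted p = 0.479) and -2.24 (SE 0.33, adjusted p = 0.00228), and -2.62 (adjusted p = 0.000919) between the siRNAs. PAX8 (log2FC -1.99) and KRT18 (-0.85) also fell with siADAR1 #2 and KRT19 rose (1.18), where the sum of the 5 epithelial markers was 67785 to 77725 normalized counts against 74103 to 92785 in siControl, and their part in these results was not tested.

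COL18A1, a multiplexin of basement membranes, fell with siADAR1 #1. COL18A1 (chr21:45405165-45513720) measured 4076 and 3773 normalized counts in siControl, 1022 and 1375 with siADAR1 #1 and 4827 and 4119 with siADAR1 #2. Its siADAR1 #1 libraries stood well below the others and its siADAR1 #2 libraries slightly above siControl. The log2FC was -1.72 (SE 0.17, adjusted p = 0.00236) and 0.19 (95% interval -0.20 to 0.57), with a difference of 1.91 (adjusted p = 0.000248) between the siRNAs. COL18A1 shares 1563 exon bases (18.5% of its exons) with SLC19A1 on the opposite strand, a gene with 587 to 1252 reads, so part of its reads cannot be assigned without the strand. The other multiplexin, COL15A1, had a log2FC of -0.20 and -1.32 (95% interval -2.69 to 0.05 for the latter) and was not called. Without siADAR1 #2 replicate 2 it was called with siADAR1 #2 (-2.11) and between the siRNAs (-1.91).

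Limma called 0 of the 3 transmembrane collagens tested, and voom on the recovered reads also called 0. Over all genes tested limma called 16.8% with siADAR1 #1, 26.6% with siADAR1 #2 and 32.8% between the siRNAs. A class of 3 genes is too small to set against these shares. Only COL13A1 had an unadjusted limma p under 0.05, with siADAR1 #1 (0.0373) and between the siRNAs (0.031). COL13A1 had a log2FC of -1.48 and 0.07, COL17A1 one of -1.34 and -0.05 and COL25A1 one of -0.41 and -0.28. COL17A1, the hemidesmosome collagen of epithelia, measured 309.3 and 322.3 normalized counts in siControl, 299.4 and 312.0 with siADAR1 #2 and 301.5 in siADAR1 #1 replicate 2, but 49.6 in siADAR1 #1 replicate 1. A lone low library thus set its siADAR1 #1 mean, and without siADAR1 #1 replicate 2 the gene was called with siADAR1 #1 (-2.61) and between the siRNAs (2.56). COL13A1 was called between the siRNAs without siADAR1 #1 replicate 1 (2.23). COL28A1 had a log2FC of -0.16 and 0.23.

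The 17 genes that did not pass the filter had at most 21 reads in any library, and 4 of them had 0 reads in both siControl libraries. They were COL2A1, COL3A1, COL5A3, COL11A1, COL24A1, COL4A6, COL8A2, COL9A3, COL14A1, COL19A1, COL20A1, COL21A1, COL22A1, COL6A5, COL6A6, COL23A1 and COL26A1. COL19A1 met the limit for expression in siControl, with 6 and 12 reads, but not the filter over all libraries, and COL10A1 the reverse. COL11A1 had 0 reads in siControl and with siADAR1 #1, and 10 and 18 reads with siADAR1 #2. COL6A5 had 4 and 1 reads in siControl, 2 and 1 with siADAR1 #1, and 21 and 15 with siADAR1 #2. Both were thus seen above 3 reads per library mainly with siADAR1 #2, and no test was made.

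Compared with each other, the siRNAs differed for 9 of the 27 genes (33.3%) against 32.8% of all genes tested, so the collagen genes differed between the siRNAs about as often as other genes. COL5A1, COL4A3, COL8A1, COL12A1 and COL18A1 were higher with siADAR1 #2, and COL4A2, COL9A2, COL6A3 and COL7A1 were lower. The median difference was 0.10 over the collagen genes and 0.00 over all genes tested. The comparisons with siControl share the same 2 control libraries, so their values are given side by side and not as independent measurements. Fits that left out each library in turn kept 13 of the 26 calls over the 3 comparisons, and COL8A1, COL4A2, COL7A1 and COL18A1 kept all of theirs.

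**Figure D3:**
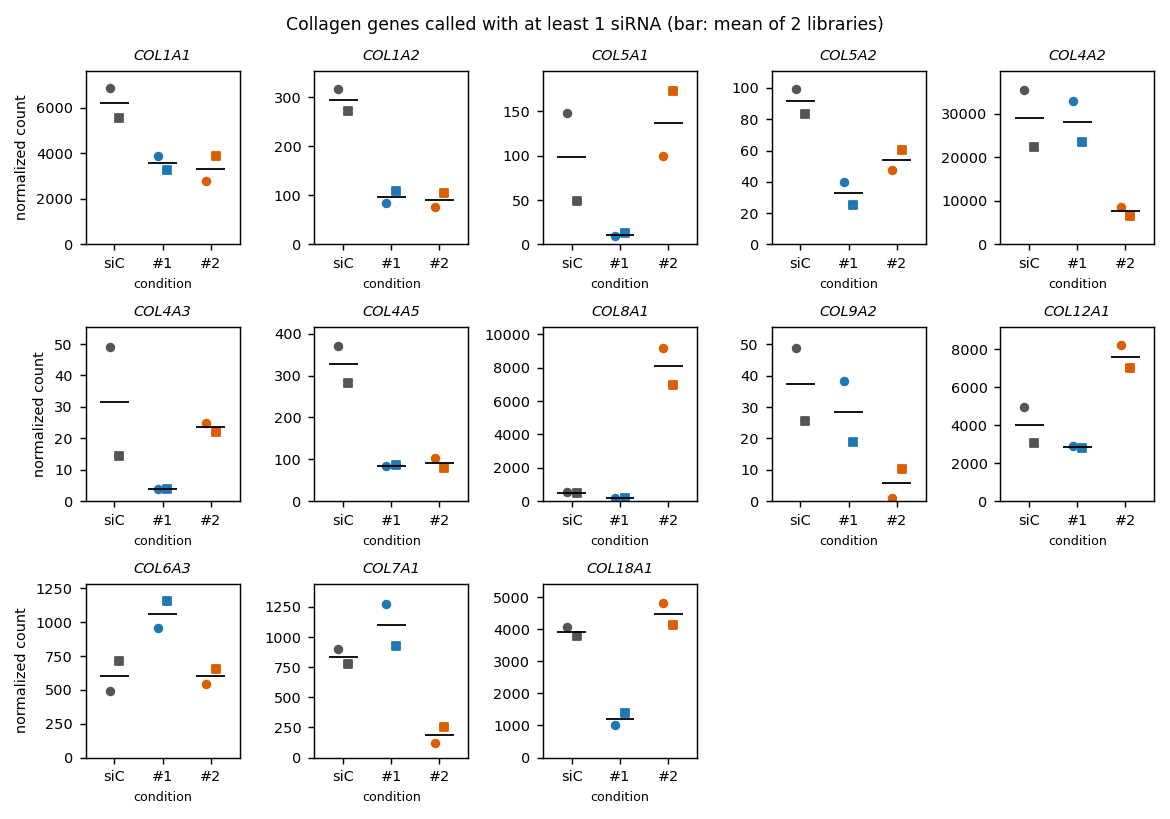
Normalized count of each collagen gene called with at least 1 siRNA, by condition (siC is siControl, #1 and #2 the siADAR1 siRNAs), with circles for replicate 1, squares for replicate 2 and bars for the mean of 2 libraries. The points of COL1A2 and COL4A5 fall with each siRNA, those of COL18A1 with siADAR1 #1, those of COL4A2 and COL7A1 with siADAR1 #2, and those of COL8A1 rise from at most 521.6 to at least 6940 with siADAR1 #2.

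The share of each library that fell on collagen genes differed little between conditions, and the make-up of that share differed more. Collagen genes took 0.137 ± 0.031% of the reads in siControl, 0.151 ± 0.0437% with siADAR1 #1 and 0.134 ± 0.0251% with siADAR1 #2 (mean ± SD, n = 2), which are differences within the spread between replicates. Within the collagen reads, COL4A1 and COL4A2 together took 74.5% and 66.5% in siControl, 84.3% and 77% with siADAR1 #1 and 57.1% and 48.3% with siADAR1 #2. The siADAR1 #2 libraries were below and the siADAR1 #1 libraries above the siControl libraries. COL8A1 took 0.612% and 0.858% of the collagen reads in siControl, 0.218% and 0.284% with siADAR1 #1 and 13.5% and 13.6% with siADAR1 #2. FACIT collagens, nearly all of it COL12A1, took 6.16% and 5.93%, then 3.57% and 5%, then 12.2% and 14.1%. Shares of a total move against each other, and with 2 libraries against 2 the smallest exact two-sided permutation p is 0.333, so no test of shares or ratios was made.

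The ratios of chains that are built into the same protein are given as values, with no test. Per kb of exon, COL4A1 over COL4A2 was 1.04 and 0.799 in siControl, 1.57 and 1.18 with siADAR1 #1 and 4.63 and 3.66 with siADAR1 #2. COL1A1 over COL1A2 was 26.0 and 24.4 in siControl, 55.4 and 36.0 with siADAR1 #1 and 44 and 44.6 with siADAR1 #2. Both ratios were higher in all 4 siADAR1 libraries than in the siControl libraries. COL4A3 over COL4A4 was 2.89 and 3.37 in siControl and 0.257 to 0.847 in the siADAR1 libraries, at the low reads and with the shared exon bases given above. COL6A1 over COL6A2 was 26.1 and 25.2 in siControl, 19.9 and 29.9 with siADAR1 #1 and 18.5 and 30.6 with siADAR1 #2, so that the conditions overlapped. COL6A1 over COL6A3 was 3.51 and 2.76 in siControl, 2.35 and 1.97 with siADAR1 #1 and 3.11 and 3.57 with siADAR1 #2.

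**Figure D4:**
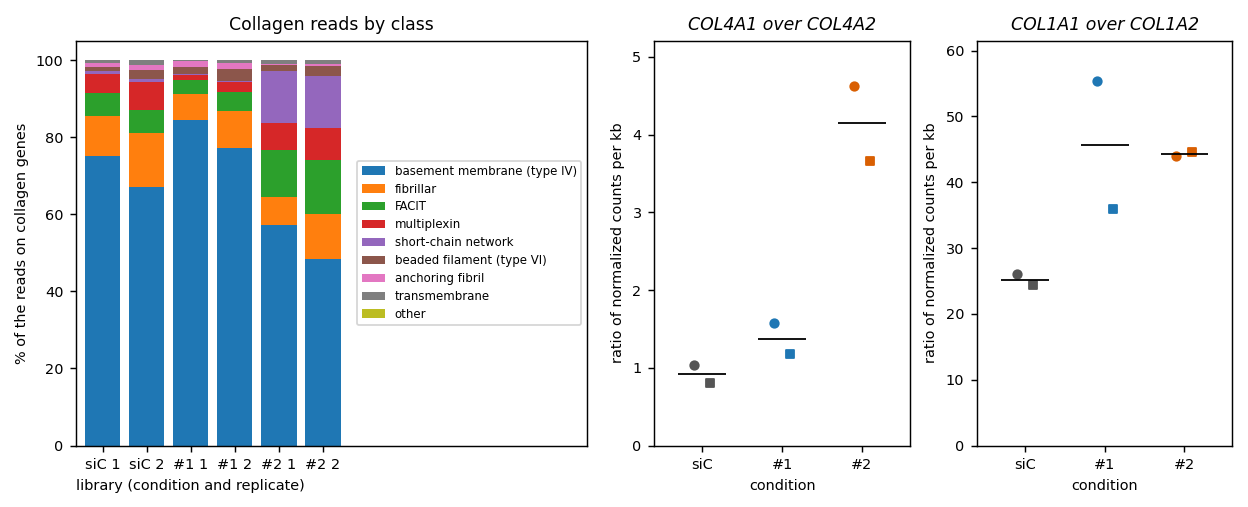
Left, share of the reads on collagen genes by class in each library (siC 1 is siControl replicate 1, and so on). Middle and right, ratio of the normalized counts per kb of COL4A1 over COL4A2 and of COL1A1 over COL1A2, with circles for replicate 1, squares for replicate 2 and bars for the mean. The short-chain network, which is nearly all COL8A1, takes 13.5% and 13.6% with siADAR1 #2, and the COL4A1 over COL4A2 ratio reaches 4.15 on average there against 0.917 in siControl.

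Genes that mature, process, bind or break down collagen were called in greater number with siADAR1 #2 than with siADAR1 #1, as were all genes tested (26.6% against 16.8%). With siADAR1 #1, 2 of the 47 tested were upregulated and 9 downregulated, and with siADAR1 #2 12 were upregulated and 12 downregulated. Of all genes tested, 6.18% were upregulated and 10.6% downregulated with siADAR1 #1, and 11.1% and 15.5% with siADAR1 #2. Without siControl replicate 1 the counts called were 2 and 15 in place of 11 and 24, and the count for siADAR1 #1 was 4 without siControl replicate 2 or siADAR1 #1 replicate 1. Of the 22 genes of maturation in the endoplasmic reticulum and export, all tested, 10 rose and 2 fell with siADAR1 #2 while 1 rose and 2 fell with siADAR1 #1. These counts are to be read beside the same shares of all genes tested. The median log2FC of these 22 was 0.47 with siADAR1 #2 and -0.06 with siADAR1 #1. PLOD3, a lysyl hydroxylase and glycosyltransferase, fell with each siRNA (log2FC -0.75 and -0.51). P3H2, a prolyl 3-hydroxylase that acts on type IV collagen, fell with siADAR1 #1 from 3710 and 2846 normalized counts to 1040 and 922.0 (log2FC -1.73) and rose with siADAR1 #2 to 8667 and 6923 (1.25). It is named here after its values were seen, as are PCOLCE2 and LOX.

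Of the 11 genes of processing and cross-linking tested, 3 fell and 1 rose with siADAR1 #1 and 6 fell and 2 rose with siADAR1 #2. Of all genes tested, 10.6% were downregulated and 6.18% upregulated with siADAR1 #1, and 15.5% and 11.1% with siADAR1 #2. LOXL2 and LOXL3, lysyl oxidases that cross-link matrix proteins, fell with each siRNA, LOXL2 from 4431 and 3093 normalized counts to 1389 and 1629 and to 1346 and 1019 (log2FC -1.30 and -1.66) and LOXL3 by a log2FC of -0.89 and -1.11. TLL2, a protease related to the procollagen C-proteinase BMP1, fell too (-0.59 and -1.01). PCOLCE2, an enhancer of that proteinase, rose with siADAR1 #1 (0.94) and fell with siADAR1 #2 (-1.57), and LOX, the oxidase for which the family is named, had a log2FC of 0.17 with siADAR1 #1 and rose with siADAR1 #2 (2.22).

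Among the 11 receptor genes tested, ITGA1, MRC2 and ITGA11 fell with siADAR1 #1 and ITGA1, MRC2 and ITGA2 with siADAR1 #2, where 10.6% and 15.5% of all genes tested were downregulated. ITGA11 and ITGA2 are named after their values were seen. ITGA1, the integrin chain that prefers type IV collagen, measured 1129 and 1081 normalized counts in siControl, 198.3 and 273.8 with siADAR1 #1 and 424.1 and 585.9 with siADAR1 #2 (log2FC -2.23 and -1.14). MRC2, which takes up collagen for breakdown in the cell, had a log2FC of -1.35 and -1.66. Of the 3 genes of breakdown tested, MMP14, a membrane-bound collagenase, was downregulated with each siRNA (log2FC -1.02 and -0.84), and it too was picked by the study from these results for a further measurement. With siADAR1 #1, 1 of the 3 fibroblast markers tested was called: FAP, which some tumor cells also express, fell (log2FC -2.96). THY1 (0.19) and ACTA2 (-0.39) were not called. PDGFRB, not tested, went the other way, with 0 and 2 reads in siControl and 16 and 10 with siADAR1 #1. Of the 3 endothelial markers tested, KDR rose (1.09), and PECAM1 (1.18) and CDH5 (-0.37) were not called. CD14, the only leukocyte marker tested, rose (1.5). The sum of the fibroblast list was 112 to 128 normalized counts with siADAR1 #1 against 146 to 174 in siControl. CD3E was at 0 and PTPRC at or under 6.3 normalized counts in every library, and the part of these markers in the results was not tested.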

How the data were processed

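Poly(A)+ RNA of Cal62 cells was sequenced by the authors in 2 biological replicates of each of 3 transfections. Per the methods and labels, the authors removed adapters (Atropos), assigned reads to GRCh38 genes (featureCounts and Salmon, within bcbio-nextgen) and scaled the libraries with DESeq2. Versions and the use of strand are not given in the sources used here. The deposited values are variance-stabilized log2 values per gene and library. The lowest value, 0.347736, stands for 0 reads, and undoing the transformation gave whole reads for 100.0% of the values in every library, within a tolerance of 0.1. Normalized counts are these reads over the size factor of the library, and values per kb use the exon length of GENCODE release 44. Totals ranged from 30114840 to 50029763 reads.

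In R 4.3.3, limma 3.58.1 fitted the log2 values (lmFit, then eBayes with a trend), with the 3 conditions as groups, no covariate and 3 residual degrees of freedom, over the 20858 genes whose mean log2 value reached that of 10 (a normalized count of 7.617). Tests were two-sided with Benjamini-Hochberg adjustment over all genes tested. Tables were built with Python 3.11.15 and pandas 2.3.3. Simulated data with 200 changed genes were used to check the steps. The alternatives were no filter or one at 50, median centring, quantile normalization, eBayes without a trend or robust, fits of 4 libraries, a replicate block, log2 of the normalized count plus a pseudocount, voom on the recovered reads, recomputed size factors, and each library left out in turn. Every member that passed the filter is named with its log2FC, and from each list of other genes at most 5 whose calls had the same sign for each siRNA, with any other named as such. The members, classes and lists were chosen from general knowledge with earlier results of these data known. The libraries carry replicate numbers that the labels do not describe as pairs, so the fits were made without them. P-values measure the spread between these cultures of the same line. Separate RefSeq promoter windows (GRCh38.p14) were matched by symbol.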

Additional observations from a re-analysis of the deposited data

Results flagged for a closer look

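COL8A1 differed between the siRNAs by a log2 difference of 5.49 (limma, adjusted p = 1.99e-05), in a direct test of siADAR1 #2 against siADAR1 #1. It was lower than siControl in both siADAR1 #1 libraries and higher in both siADAR1 #2 libraries. The difference lay between 5.29 and 5.70 over the alternatives and libraries left out.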

How the results depend on the processing

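With 2 libraries per condition, the fits pool the spread over 3 groups, and a lone library left in a condition is assumed to vary like the others. With no filter on low values the collagen genes called were 1 with siADAR1 #1, 3 with siADAR1 #2 and 4 between the siRNAs, in place of 9, 8 and 9, and the genes of collagen maturation, processing, receptors and breakdown 1 and 4, in place of 11 and 24. Over all genes that setting called 548, 2103 and 3221, in place of 3502, 5541 and 6838. With eBayes without a trend the collagen genes called were 5 and 5 with the siRNAs and the other list gave 3 with siADAR1 #1. That setting ended the calls of COL1A1, COL5A1, COL4A3 and COL6A3 with siADAR1 #1. With siADAR1 #2 it ended those of COL1A1, COL9A2 and COL12A1, and between the siRNAs those of COL9A2 and COL6A3. The cause of these drops was not tested. With each library left out, the collagen genes called ranged from 2 to 9 with siADAR1 #1, from 5 to 9 with siADAR1 #2 and from 6 to 9 between the siRNAs, and the other list from 2 to 15 and from 15 to 25. At a limit of 50, 20 collagen genes were expressed in siControl. Of the 26 collagen calls, 13 were kept under every alternative other than no filter, and only 4 when no filter was counted too. These 4 were COL4A5 and COL8A1 with siADAR1 #2 and COL8A1 and COL18A1 between the siRNAs. The other collagen genes called with no filter had not passed the filter. With the replicate block the collagen genes called were 11, 10 and 10, the other list gave 13 and 25, 0 of the 26 calls were lost and 5 were gained, which were COL4A1 and COL13A1 with siADAR1 #1, COL4A4 and COL15A1 with siADAR1 #2 and COL13A1 between the siRNAs. Libraries of the same number deviated together with correlations of 0.106, 0.110 and 0.162, and as there are only 2 numbers per condition they are not shown to be pairs.

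No called value changed direction under these alternatives. Among log2FC that were not called, COL4A2 with siADAR1 #1 was 0.12 after median centring and 0.07 after quantile normalization, COL4A5 between the siRNAs was -0.03 and -0.08, and COL13A1 with siADAR1 #2 was -0.01 after quantile normalization. Others not called changed sign with a library left out, and their lowest and highest log2FC follow. With siADAR1 #1, they were COL4A2 -0.35 to 0.31, COL4A4 -0.32 to 1.24, COL9A2 -0.83 to 0.11, COL15A1 -0.88 to 0.48, COL25A1 -1.23 to 0.41 and COL28A1 -0.45 to 0.13. With siADAR1 #2, they were COL5A1 -0.17 to 1.38, COL27A1 -0.03 to 0.26, COL4A1 -0.25 to 0.78, COL4A3 -0.99 to 0.63, COL9A1 -0.41 to 0.21, COL16A1 -0.90 to 0.20, COL6A1 -0.12 to 0.35, COL6A3 -0.25 to 0.28, COL13A1 -0.67 to 0.81, COL25A1 -1.36 to 0.81 and COL28A1 -0.13 to 0.60. Between the siRNAs, they were COL1A1 -0.35 to 0.12, COL1A2 -0.32 to 0.12, COL11A2 -0.34 to 0.09, COL4A1 -0.73 to 0.16, COL4A5 -0.09 to 0.28, COL10A1 -1.70 to 0.90, COL6A1 -0.42 to 0.05, COL6A2 -0.39 to 0.13 and COL25A1 -0.96 to 1.22.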
